A study of Mus musculus with 9 samples.

Results

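Transcripts of 10 cytokine and cytokine receptor genes were followed in engineered muscle: the IL-1 family ligands Il1a, Il1b and Il33 with the IL-33 receptor Il1rl1, the gp130 cytokines Il6, Il11 and Lif with their shared receptor chain Il6st, and the growth factor-like cytokines Il15 and Csf1. They were taken by gene symbol alone. All 10 were found among the 40879 symbols of the count files, with 18619 of them counted at least once in the 9 libraries, and all 10 passed the filter on low counts that left 11980 genes for testing. The material was 3D muscle constructs of C2C12, an immortal mouse myoblast line of wild-type genotype that forms myotubes in low-mitogen medium, set in matrix prepared from muscle tissue. All 9 constructs had 2 days in growth medium and then 10 days in differentiation medium with 10% equine serum. Normal constructs (3 libraries) received no irradiation, irradiated constructs (3) received 1 X-ray dose of 20 Gy to bring on senescence, and cocultured constructs (3) were themselves unirradiated but were kept in a dish with an irradiated construct. The interval from irradiation or the start of coculture to harvest is not given in the sources used here. The model holds a single cell line, and the labels name no immune or endothelial cells in it. The column headings of the normal files carry the same co suffix as those of the cocultured files although their titles say normal, and the series text counts 2 samples each for the normal and irradiated conditions where the labels list 3, all of which were used.

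IL-1α and IL-1β act through the same receptor pair, IL1R1 and IL1RAP, and activate NF-kB, which in turn drives IL-6 and many other inflammatory genes. IL-1β must be cut, typically by caspase-1, before it is active, whereas IL-1α and IL-33 act as alarmins when released from damaged cells, IL-33 through ST2, the product of Il1rl1. IL-6 and IL-11 bind receptor chains of their own, LIF binds LIFR, which further cytokines of the family also use, and all signal through gp130, the product of Il6st, to JAK kinases and STAT3. In muscle, IL-6 and LIF are known as myokines that act on satellite cells, IL-15 is a muscle-derived factor that sustains lymphocytes, and CSF1 supports macrophages. IL-1α and IL-6 are among the best known factors that senescent cells secrete.

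Library totals ran from 4840993 to 6607557 counts in normal, 6485655 to 8290468 in irradiated and 7506605 to 8035763 in cocultured constructs. Levels are given as normalised CPM, the share of a library that a gene takes on the usual CPM scale, after each library size was multiplied by its TMM factor (0.556 to 1.29), which corrects for differences in composition. Libraries stood apart within groups. Normal 3 and irradiated 1 had summed levels of 10 myoblast and myotube markers of 47300 and 27880 CPM, against 2820 to 5282 CPM in the other 7. Acta1 (33320 and 18610 CPM) and Ckm (12000 and 7258 CPM) made most of these 2 sums. The list did not move as a whole: Des was also highest in these 2, but Mymk was lowest in normal 3 and Myh3 in irradiated 1. Irradiated 2 and irradiated 3 lacked counts for more genes than any other library. Markers of the labelled cell type were present, with 10 of 10 detected in normal and cocultured and 9 of 10 in irradiated constructs, where Myf5 had no count. Lymphocyte markers summed to at most 7.05 CPM, and Cd3e, Cd4, Cd8a, Ncr1 and Nkg7 had no count in any library. Mast cell markers, of interest because mast cells carry ST2, were at 0 for Kit, Cpa3, Mcpt4 and Fcer1a, while the fifth, Tpsb2, stood at 19.4 CPM in normal 3, the library highest in Il1rl1, at 1.92 in irradiated 1 and at 0.857 in cocultured 1. Its part in the Il1rl1 values was not tested. Endothelial markers summed to 2.05 to 27.6 CPM in normal (3 of 6 with a count), 5.75 to 37.3 in irradiated (6 of 6) and 0 to 8.04 in cocultured constructs (2 of 6), and 7 fibroblast markers to 6270 to 11100, 5020 to 7860 and 6350 to 10300 CPM. Most of the fibroblast sum was Dcn (6015 to 10960, 4731 to 7231 and 6069 to 10140 CPM). Not all of that list followed it: Dpt had no count in normal libraries and 9.97 to 37.1 CPM in irradiated ones. Macrophage markers summed to 107 to 460 CPM in normal, 1.41 to 38.1 in irradiated and 29.9 to 169 in cocultured constructs (6, 4 and 7 of 10 with a count). Most of this was Cd14 (94.5 to 448 CPM in normal, 1.06 to 18.7 in irradiated and 16.8 to 169 in cocultured), a lipopolysaccharide co-receptor, except in irradiated 1, where Csf1r (15.8 CPM) and C1qa (15.3 CPM) led, while the leukocyte marker Ptprc reached at most 0.107 CPM and the macrophage marker Adgre1 was seen in normal 2 alone (3.18 CPM). The summed macrophage list was thus below the normal range in every irradiated library, but irradiated 1 (38.1 CPM) was above cocultured 1 (29.9 CPM). Cd14 made most of the difference from normal, while C1qa was highest in irradiated 1 and Csf1r had no count in cocultured libraries. The part of this list in the cytokine values below was not tested.

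None of the 10 transcripts passed the test between irradiated and normal constructs, and 6 had lower values in every irradiated library than in any normal one: Il1a, Il1b, Il33, Il1rl1, Il6 and Lif. Of these, Il1b, Il1rl1 and Lif had no count in any irradiated library. Csf1, Il6st and Il15 had higher means in irradiated constructs with overlapping groups, and Il11 was carried by 1 irradiated library. In bulk RNA, fewer cells that make a transcript and less transcript per cell cannot be told apart. By edgeR's quasi-likelihood test over all genes, 0 of 10 were called at an adjusted p under 0.05, against 7 of all 11980 genes (0.0584%), and the adjusted p-values of the members ran from 0.101 for Il1a to 1. At an unadjusted p under 0.05 the same test had 6 of 10, all lower, where 8.7% of all genes were lower and 1.59% higher at that level. Groups lay apart with irradiated lower for 6 of 10 members and 11.8% of all genes, and with irradiated higher for 0 of 10 and 3.94%. DESeq2 called 5 of 10 lower (Il1a, Il1b, Il33, Lif and Il1rl1, not Il6 at an adjusted p of 0.122), against 4.14% of the 13290 genes to which it gave an adjusted p. The median log2 fold change of the members was -3.15, and that of all genes was -0.21. The edgeR count went from 0 to 1 without irradiated 1, where Il1a was called, and to 1 without irradiated 3, where Il6 was called, while the count over all genes went from 7 to 147 and to 17. In both cases the library left out held most or all of that gene's irradiated counts. Replicates are titled biological, but constructs were grown together in dishes, so the p-values speak only for the spread among these libraries, part of which may be technical.

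**Figure D1:**
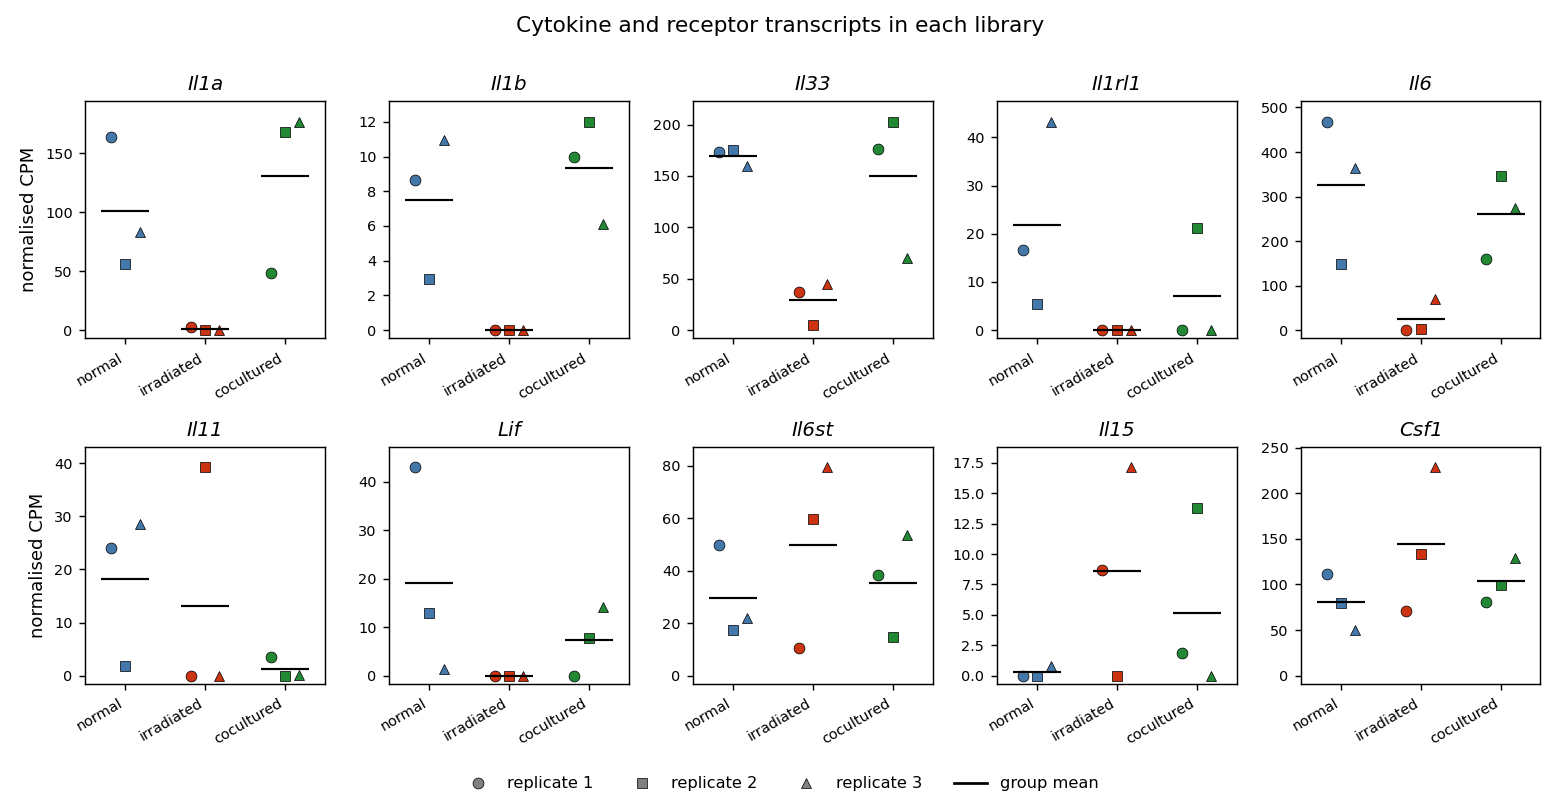
Normalised CPM of the 10 transcripts (vertical axes, linear, each with its own range) in the 9 libraries by group, with replicate number as the symbol and the group mean as a bar. The 3 irradiated points of Il1a, Il1b, Il33, Il1rl1, Il6 and Lif lie below all 3 normal points, while those of Il11, Il6st, Il15 and Csf1 span the normal range or overlap it.

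Il1a, which encodes IL-1α, stood at 164, 56.4 and 82.9 CPM in normal 1, 2 and 3, at 2.56, 0 and 0 in irradiated 1, 2 and 3, and at 48.9, 168 and 177 in cocultured 1, 2 and 3. Every unirradiated library was above every irradiated one, and irradiated 1 held all 12 irradiated counts against 1350 in the normal group. The log2 fold change between irradiated and normal constructs was -7.11 ± 1.38 (SE, n = 3 each; edgeR adjusted p = 0.101, rank 22 of 11980 by p). As summed counts the irradiated level was 0.00482 of the normal level, with an exact 95% counting interval of 0.00248 to 0.00844 that leaves out the spread between constructs. Leaving out 1 library at a time gave log2 values of -12.56 to -6.43 and adjusted p-values of 0.00122 to 0.439 in edgeR, the lowest without irradiated 1, after which no irradiated count remains.

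Il1b, which encodes the caspase-activated IL-1β, was a low transcript throughout, at 8.63, 2.95 and 10.9 CPM in normal, 0, 0 and 0 in irradiated and 9.96, 12 and 6.10 in cocultured libraries. Its 95 normal and 263 cocultured counts faced none in the irradiated group. With 3 counts per group taken as the least that could be seen, irradiated constructs were at least 59.7-fold lower than normal ones, a bound for counting error only (edgeR adjusted p = 0.483, DESeq2 adjusted p = 6.9e-05). Of its pattern across the 9 libraries, the closest member was Il1a (Pearson r of log2 CPM 0.94), a description in which the zeros of the irradiated libraries weigh heavily.

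Il33, which encodes the nuclear alarmin IL-33, was the steadiest of these transcripts in normal constructs, at 173, 176 and 159 CPM. It stood at 37.3, 5.27 and 44.5 CPM in the irradiated libraries and at 176, 203 and 70.1 CPM in the cocultured ones. Irradiated libraries were all below both other groups, with counts in each of the 3 (175, 56 and 379). The log2 fold change against normal was -2.55 ± 0.66 (SE, n = 3 each; edgeR adjusted p = 0.221, DESeq2 adjusted p = 0.0188). It kept to -3.01 to -2.05 as each library was left out, and was -2.18 (edgeR adjusted p = 0.0585) without both irradiated 2 and irradiated 3, the libraries with most genes at 0, where irradiated 1 alone is assumed to vary like the other groups.

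Il1rl1 encodes ST2, the receptor of IL-33, and its signalling and soluble decoy forms are not separated in gene counts. It stood at 16.6, 5.45 and 43.2 CPM in normal libraries, at 0 in all 3 irradiated ones and at 0, 21.2 and 0 in the cocultured ones. The irradiated values lay below the normal ones but not below the cocultured ones, of which 2 were also without counts. Irradiated constructs were at least 173-fold lower than normal ones by the same bound of 3 counts per group (edgeR adjusted p = 0.483, limma voom adjusted p = 0.119, DESeq2 adjusted p = 1.34e-12). The DESeq2 value goes with a fitted log2 of -23.8, against -10.3 in edgeR. Neither measures the size of a change where a whole group has no count, and that DESeq2 p-value should be read with the same caution. Without normal 3, which carries most of the normal mean, the bound is 87.8-fold. Its standard error, 3.78 on the log2 scale, was the widest among the members.

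Among the gp130 cytokines, Il6 stood at 468, 149 and 365 CPM in normal 1, 2 and 3, at 0, 1.60 and 70.6 in irradiated 1, 2 and 3, and at 159, 347 and 275 in cocultured 1, 2 and 3. Irradiated libraries were the lowest 3 of the 9, but irradiated 3 held 602 of their 619 counts. The log2 fold change against normal was -3.76 ± 1.33 (SE, n = 3 each; edgeR adjusted p = 0.483, DESeq2 adjusted p = 0.122), and -8.42 without irradiated 3 (edgeR adjusted p = 0.00289) or -3.18 without irradiated 1. Il1a and Il6 thus had their irradiated counts in different libraries, Il1a in irradiated 1 and Il6 almost wholly in irradiated 3.

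Lif, which encodes leukaemia inhibitory factor, varied widely among normal libraries, at 42.9, 12.9 and 1.37 CPM. It had no count in the 3 irradiated libraries and stood at 0, 7.76 and 14.1 CPM in the cocultured ones. Irradiated constructs were at least 152-fold lower than normal ones by the same bound of 3 counts per group, for counting error only (edgeR adjusted p = 0.483, DESeq2 adjusted p = 0.00396). At 10 to 20 CPM outside the irradiated group, where Lif lay, 44.8% and 39.8% of genes had no count in irradiated 2 and irradiated 3. Normal 1 held 209 of the 271 normal counts, and without it the bound is 56.9-fold.

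Il11, which encodes the fibrosis-linked gp130 cytokine IL-11, followed no group. Its values were 24.0, 1.82 and 28.5 CPM in normal, 0, 39.2 and 0 in irradiated and 3.43, 0 and 0.113 in cocultured libraries. Irradiated 2 held all 417 irradiated counts and gave the highest value of the 9 libraries. The log2 fold change between irradiated and normal constructs was -0.47 ± 2.60 (SE, n = 3 each; edgeR adjusted p = 1), and it ran from -9.93 without irradiated 2 to 0.12 without irradiated 3, so no direction can be given.

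Il6st, which encodes gp130 itself, was detected in all 9 libraries, at 49.7, 17.3 and 21.9 CPM in normal, 10.4, 59.6 and 79.4 in irradiated and 38.4, 14.6 and 53.6 in cocultured constructs. Irradiated 1 was the lowest library of all and irradiated 2 and 3 were the highest. The log2 fold change was 0.75 ± 0.89 (SE, n = 3 each; edgeR adjusted p = 1) against normal, and -1.51 without both irradiated 2 and irradiated 3. Csf1, the macrophage growth factor, was likewise highest in irradiated 2 and 3, at 112, 80.0 and 49.8 CPM in normal, 70.5, 133 and 228 in irradiated and 81.2, 99.9 and 129 in cocultured libraries. Its log2 fold change against normal was 0.84 ± 0.48 (SE, n = 3 each; edgeR adjusted p = 0.65), which became 0.34 without irradiated 3 and -0.20 without both irradiated 2 and irradiated 3. The 2 genes correlated at r = 0.74 over the 9 libraries, and the 2 irradiated libraries in which both were highest are also those with the most genes at 0.

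Il15 was near the limit of detection in normal constructs, with 3 counts in all, and stood at 0, 0 and 0.821 CPM there. It reached 8.73, 0 and 17.1 CPM in irradiated and 1.82, 13.8 and 0 in cocultured libraries. One library in each of these groups had no count, so both groups overlapped the normal one. As summed counts the ratio of irradiated to normal was 33.8 (exact 95% counting interval 11.4 to 165) and that of cocultured to normal 23.2 (7.79 to 114). The interval takes reads as independent and leaves out the spread between constructs, and with that spread edgeR gave adjusted p-values of 0.839 and 1.

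Promoter windows are shown for the lower members with a single window in the table, Il6, Il1a, Il1b and Lif, and for Csf1, which was not lower, from 250 bases before to 50 after the annotated start, 5′ to 3′ on the gene's strand. The sequences are RefSeq's for build GRCm38.p6, an earlier build than the one named for these counts. Capitals mark matches to an NF-kB consensus, to AP-1 (TGANTCA), C/EBP (TTGCNNAA) and STAT (TTCNNNGAA) motifs on both strands, or to a TATA box (TATAAA) on the gene's strand. No matches overlap one another in these windows. Il6 lies at chr5:30012864-30013163 (+), Il1a at chr2:129309923-129310222 (-), Il1b at chr2:129371090-129371389 (-), Lif at chr11:4257318-4257617 (+) and Csf1 at chr3:107760420-107760719 (-).
Il6: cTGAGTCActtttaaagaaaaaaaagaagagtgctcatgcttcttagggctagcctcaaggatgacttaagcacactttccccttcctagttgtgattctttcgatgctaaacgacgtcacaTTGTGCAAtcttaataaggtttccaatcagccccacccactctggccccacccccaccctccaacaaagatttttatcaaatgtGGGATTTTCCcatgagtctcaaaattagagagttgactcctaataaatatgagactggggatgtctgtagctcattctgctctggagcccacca
Il1a: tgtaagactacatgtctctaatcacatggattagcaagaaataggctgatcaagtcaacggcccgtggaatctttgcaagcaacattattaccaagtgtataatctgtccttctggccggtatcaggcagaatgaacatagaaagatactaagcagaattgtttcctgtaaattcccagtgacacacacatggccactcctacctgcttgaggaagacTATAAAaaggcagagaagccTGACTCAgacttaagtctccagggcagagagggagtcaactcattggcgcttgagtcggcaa
Il1b: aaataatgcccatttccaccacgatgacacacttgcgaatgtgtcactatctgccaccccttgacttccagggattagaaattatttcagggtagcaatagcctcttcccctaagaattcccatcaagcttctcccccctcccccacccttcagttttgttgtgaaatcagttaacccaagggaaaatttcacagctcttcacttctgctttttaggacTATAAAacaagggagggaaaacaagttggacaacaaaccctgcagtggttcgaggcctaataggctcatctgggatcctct
Lif: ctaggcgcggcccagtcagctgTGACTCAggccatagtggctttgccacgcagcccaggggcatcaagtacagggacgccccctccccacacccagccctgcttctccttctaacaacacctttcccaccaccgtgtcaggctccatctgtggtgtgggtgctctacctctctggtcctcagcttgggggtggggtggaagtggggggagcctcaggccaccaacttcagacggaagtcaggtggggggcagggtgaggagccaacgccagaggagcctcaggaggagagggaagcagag
Csf1: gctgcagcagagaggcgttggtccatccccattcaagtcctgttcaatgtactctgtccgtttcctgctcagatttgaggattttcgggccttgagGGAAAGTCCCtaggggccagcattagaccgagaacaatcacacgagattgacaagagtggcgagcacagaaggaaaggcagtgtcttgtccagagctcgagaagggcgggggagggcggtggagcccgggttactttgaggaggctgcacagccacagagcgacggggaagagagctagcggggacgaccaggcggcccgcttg

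Il6 held 3 matches, an AP-1 motif at -249 to -243, a C/EBP motif at -128 to -121 and an NF-kB consensus at -44 to -35, counted from the start. Il1a held an AP-1 motif at -12 to -6 and a TATA box at -32 to -27. Il1b held a TATA box alone, at -31 to -26, and Lif an AP-1 motif alone, at -228 to -222. Csf1 also held an NF-kB consensus, at -154 to -145 on the opposite strand. Il33 and Il1rl1, also lower in irradiated libraries, have 2 windows each: those of Il33 held a TATA box at -203 to -198 in one, and a C/EBP motif at -85 to -78 with a TATA box at -29 to -24 in the other, and Il1rl1 held a C/EBP motif at -34 to -27 in one of its windows. Of all 12 windows of the 9 members in the table (Il33, Il11 and Il1rl1 have 2 each, and Il15 is not among them), 2 held the NF-kB consensus, 4 AP-1, 3 C/EBP, 0 STAT and 4 a TATA box. Among all 32851 windows of this length the shares were 4.51%, 7.81%, 10.8%, 8.3% and 8.32%. A match is a description of letters and not a measured site.

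The comparison of irradiated with cocultured constructs sets irradiated cells against unirradiated ones that shared a dish with such cells. Here too 0 of 10 members were called by edgeR, against 4 of 11980 genes (0.0334%), and the smallest adjusted p was 0.144, for Il1a. Il1a, Il1b, Il33 and Il6 lay lower in all 3 irradiated libraries than in any cocultured one, 4 of 10 against 10.6% of all genes, and none lay higher, against 3.9%. At an unadjusted p under 0.05 edgeR had 6 of 10 lower, the 4 just named with Lif and Il1rl1, where 7.33% of all genes were lower and 2.25% higher. DESeq2 called the same 5 genes lower as against normal, with 3.71% of its 12361 genes. For Il1rl1 the log2 that DESeq2 fitted there was -22.1, again no measure of size with a whole group at 0. The 2 comparisons share the irradiated libraries, so they are not independent. Il1a differed by a log2 of -7.48 ± 1.40, Il33 by -2.37 ± 0.65 and Il6 by -3.43 ± 1.31 (SE, n = 3 each), with edgeR adjusted p-values of 0.144, 0.375 and 0.493. Il1b was at least 74.4-fold, Lif at least 58-fold and Il1rl1 at least 56.2-fold lower in irradiated constructs by the bound of 3 counts per group, although Lif and Il1rl1 were also at 0 in 1 and 2 cocultured libraries. Without cocultured 3 the bound for Lif is 30.8-fold, and without cocultured 2 there is none for Il1rl1. Csf1 and Il6st differed by 0.48 ± 0.48 and 0.49 ± 0.88, and without irradiated 3 by -0.03 and -0.02. Il11 differed by 3.45 ± 2.85, and by -6.02 without irradiated 2. The median log2 of the members was -2.90, beside -0.10 for all genes.

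**Figure D2:**
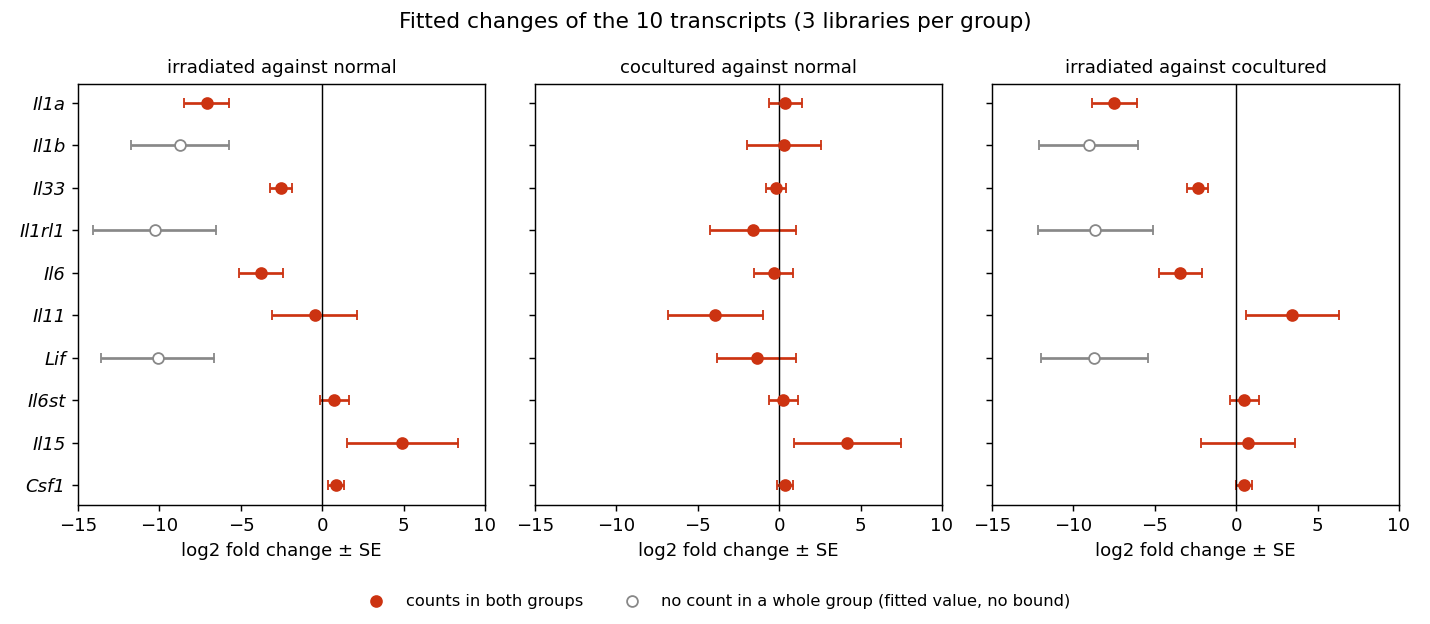
Log2 fold changes with standard errors (horizontal axis) of the 10 transcripts (vertical axis) in the 3 comparisons, each of 3 against 3 libraries, with open grey symbols where a whole group had no count and the fitted value is no bound. In both comparisons of irradiated constructs Il1a, Il1b, Il33, Il1rl1, Il6 and Lif lie left of 0, and against normal the cocultured values lie on both sides of it.

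Cocultured constructs, which were exposed to whatever their irradiated neighbour released into the dish, overlapped normal ones for all 10 members. None was called by edgeR, which called 0 of 11980 genes (0%), and 0 of 10 had an unadjusted p under 0.05 (4.11% of all genes). DESeq2 called 0 of 10 (0.892% of its 15030 genes) and limma voom also 0. Groups lay apart for 0 of 10 members and for 13.2% of all genes. Il1a averaged 131 ± 71.3 CPM in cocultured and 101 ± 56.1 in normal constructs (SD, n = 3 each), a log2 difference of 0.37 ± 1.02 (SE). Il6 averaged 260 ± 94.7 and 327 ± 163 CPM (log2 -0.33 ± 1.19), Il33 150 ± 70.1 and 169 ± 8.79 CPM (log2 -0.18 ± 0.62). Scaled by library totals alone, Il6 and Il33 had the opposite sign, 0.24 and 0.37, a change of scale that moved the median of all genes from -0.07 to 0.48. Csf1 averaged 104 ± 24.3 and 80.6 ± 31.1 CPM (log2 0.36 ± 0.48) and Il6st 35.5 ± 19.7 and 29.6 ± 17.5 CPM (log2 0.26 ± 0.88). The fitted values farthest from 0 were those of Il11 at 1.18 ± 1.95 and 18.1 ± 14.3 CPM (log2 -3.92 ± 2.91) and of Il15 at 5.19 ± 7.47 and 0.274 ± 0.474 CPM (log2 4.19 ± 3.31). The standard errors of the members in this comparison ran from 0.48 to 3.31 on the log2 scale. The median log2 of the members was 0.04, and that of all genes -0.07.

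Order of the group means was cocultured, normal, irradiated for Il1a and Il1b, and normal, cocultured, irradiated for Il33, Il6, Lif and Il1rl1. In all 6 the cocultured and normal groups overlapped, and for Lif and Il1rl1 the cocultured and irradiated groups did too. For Csf1 and Il6st the order was irradiated, cocultured, normal, with every pair of neighbours overlapping, and the same order and overlap held for Il15. Il11 had the order normal, irradiated, cocultured, again with overlap between neighbours.

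Zeros in the irradiated libraries have to be read against how often other genes were at 0 there. Il1b averaged 8.43 CPM over the 6 normal and cocultured libraries, and of the 1921 genes at 5 to 10 CPM there, 21.3% had no count in all 3 irradiated libraries. Lif (13.2 CPM) and Il1rl1 (14.4 CPM) belong with 2172 genes at 10 to 20 CPM, of which 5.99% had no count in all 3. For Il1a (116 CPM) and Il6 (294 CPM) the range is 100 to 500 CPM with 1382 genes. Of these 0.217% were without counts in both irradiated 2 and irradiated 3, as Il1a was, and 0.145% in irradiated 1, as Il6 was. These libraries were picked by where Il1a and Il6 were at 0, and both genes are themselves among those counted. At that level the shares in irradiated 1, 2 and 3 singly were 0.145%, 0.724% and 0.579%. The share at 0 was thus high at the level of Il1b and low at the levels of Il1a and Il6. In single libraries, genes at 10 to 20 CPM were at 0 in 44.8% of cases in irradiated 2 and 39.8% in irradiated 3, against 2.07% to 19.7% in the other 7. The ranges were set by the 6 normal and cocultured libraries, which in itself lowers the shares at 0 in those 6. Only irradiated 1 (18.3%) is a like comparison.

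**Figure D3:**
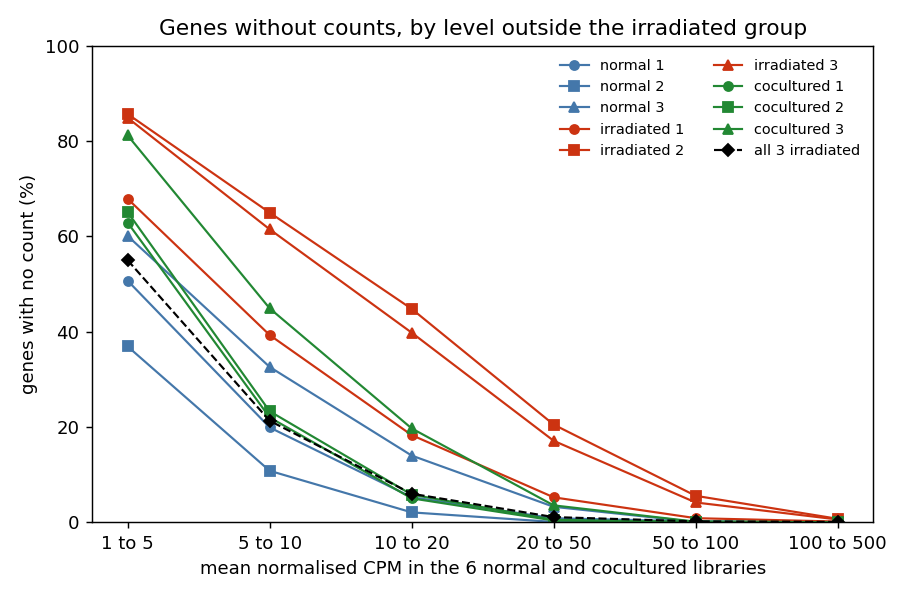
Share of genes without counts in % (vertical axis) in each library, by the mean normalised CPM of the gene in the 6 normal and cocultured libraries (horizontal axis), with the share at 0 in all 3 irradiated libraries as a dashed line. Irradiated 2 and irradiated 3 have the highest shares in every range, and at 10 to 20 CPM 5.99% of genes are at 0 in all 3 irradiated libraries. The 6 libraries that set the ranges have lower shares in part because of that choice.

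Other genes of these pathways were described from 6 lists chosen by role: 80 genes, of which 65 were tested. None was called by edgeR or limma voom in any comparison. DESeq2 called 1 higher and 5 lower between irradiated and normal constructs, 3 higher and 4 lower between irradiated and cocultured ones, and 0 higher and 1 lower between cocultured and normal ones. Its shares over all genes were 0.88% higher and 4.14% lower, 1.42% higher and 3.71% lower, and 0.892% in either direction. Between irradiated and normal constructs 2 of 65 had an unadjusted p under 0.05 with a higher and 8 with a lower value (1.59% and 8.7% of all genes), and the lists' median log2 was -0.48 beside -0.21 for all genes. Against cocultured constructs the numbers were 3 and 6 (2.25% and 7.33% of all genes), with a median of -0.63 beside -0.10. Between cocultured and normal constructs they were 1 and 2 (4.11% of all genes in either direction), with a median of 0.01 beside -0.07. At that level the 2 higher ones against normal were Lifr and Il11ra1, receptor chains that pair with gp130. A count of 2 is too small to read as a trait of such chains, and Osmr and Il6ra of the same list overlapped the normal group.

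Lifr, the LIF receptor chain, stood at 24.0, 46.8 and 44.3 CPM in normal, 155, 119 and 183 in irradiated and 64.2, 52.5 and 59.6 in cocultured libraries. Irradiated libraries were the highest 3 and normal ones the lowest 3, with no overlap among the 3 groups. The log2 fold change between irradiated and normal was 1.99 ± 0.44 (SE, n = 3 each; edgeR adjusted p = 0.146, DESeq2 adjusted p = 2.56e-05), and it stayed within 1.76 to 2.16 as each library was left out. Il11ra1, the IL-11 receptor chain, stood at 19.3, 27.3 and 34.8 CPM in normal, 106, 79.8 and 58.2 in irradiated and 23.5, 9.41 and 21.3 in cocultured libraries, so that irradiated values were above all others. It differed by a log2 of 1.59 ± 0.69 from normal and 2.17 ± 0.70 from cocultured constructs (SE, n = 3 each; edgeR adjusted p = 0.483 and 0.493, DESeq2 adjusted p = 0.0538 and 0.00186). The ligand Lif was without counts in the libraries where Lifr was highest. Osmr, the oncostatin M receptor, averaged 66.9 ± 11.1 CPM in irradiated, 91.4 ± 14.1 in cocultured and 56.5 ± 33.7 in normal constructs (SD, n = 3 each). Il6ra, the IL-6 receptor chain, averaged 20.6 ± 18.0, 19.0 ± 20.7 and 15.3 ± 6.76 CPM in the same order and had no count in irradiated 1. Of the 7 tested genes in this list, 5 had positive and 2 negative values against normal (median log2 0.42).

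**Figure D4:**
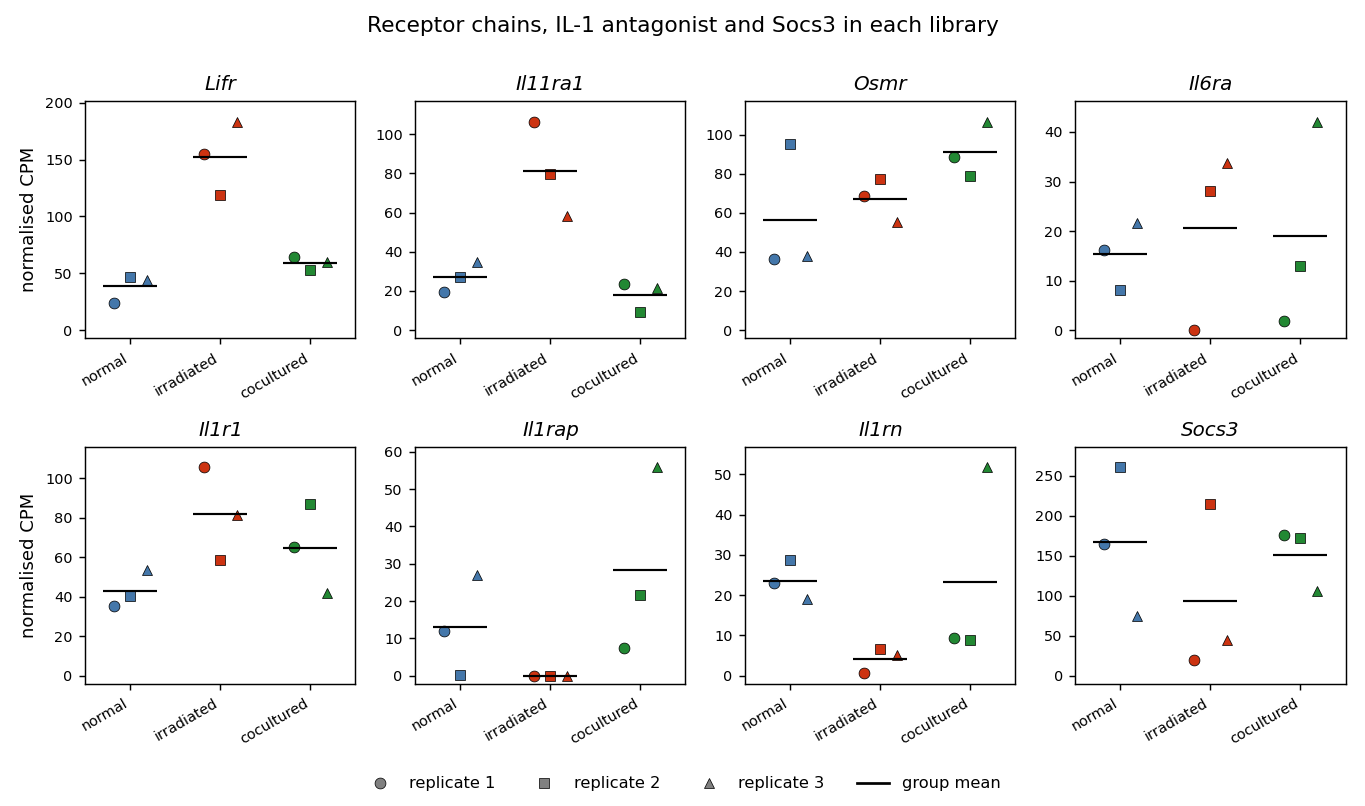
Normalised CPM (vertical axes, linear, each with its own range) of 6 receptor chains, the IL-1 antagonist Il1rn and the feedback inhibitor Socs3 in the 9 libraries by group, with the group mean as a bar. The irradiated points of Lifr and Il11ra1 lie above all other libraries, those of Il1rap are all at 0, and those of Osmr and Socs3 overlap the normal ones.

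On the IL-1 side, the receptor Il1r1 stood at 35.3, 40.2 and 53.6 CPM in normal, 105, 58.8 and 81.5 in irradiated and 65.0, 87.0 and 41.9 in cocultured libraries. Irradiated values were above the normal ones and overlapped the cocultured ones (log2 against normal 0.93 ± 0.52, SE, n = 3 each; edgeR adjusted p = 0.617). Its partner Il1rap, without which the receptor does not signal, stood at 11.9, 0.227 and 27.1 CPM in normal, 0 in all 3 irradiated and 7.29, 21.6 and 55.8 in cocultured libraries. The irradiated group was below both others, at least 104-fold lower than normal and 225-fold lower than cocultured by the bound of 3 counts per group, or 48.3-fold without normal 3 and 115-fold without cocultured 3 (edgeR adjusted p = 0.334 against normal and 0.375 against cocultured, DESeq2 adjusted p = 2.57e-05 for the second). Il1rn, the receptor antagonist, averaged 4.16 ± 3.14 CPM in irradiated, 23.6 ± 4.77 in normal and 23.3 ± 24.6 in cocultured constructs (SD, n = 3 each), with irradiated below both others (log2 against normal -2.49 ± 1.48, edgeR adjusted p = 0.677). Of the adaptors downstream, Tab3 was at 0 in all irradiated libraries and averaged 6.75 CPM in normal and 11.7 in cocultured ones, and Tab2 averaged 72.0 ± 46.6 CPM in irradiated against 170 ± 64.3 in normal ones, without overlap (log2 -1.24 ± 0.54, edgeR adjusted p = 0.483). Outside the irradiated group Tab3 averaged 5 to 10 CPM, where 21.3% of genes had no count in all 3 irradiated libraries. Il1rap averaged just over 20 CPM there, and at 20 to 50 CPM the share was 1.08%, against 5.99% at 10 to 20 CPM. The 16 tested genes of the IL-1 signalling list had 9 positive and 7 negative values against normal (median log2 0.13). Against cocultured constructs they had 4 and 12 (median -0.80). Of all genes 58.2% and 53.3% were negative in these 2 comparisons. Capn2, a calpain subunit of the protease class that cleaves pro-IL-1α, averaged 123.1 ± 27.1 CPM in cocultured libraries and 56.4 ± 16.8 in normal ones (log2 1.13 ± 0.47, edgeR adjusted p = 1), without overlap.

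Downstream of gp130, Socs3, the STAT3-induced inhibitor of this receptor, stood at 165, 260 and 74.4 CPM in normal, 20.0, 214 and 45.2 in irradiated and 176, 172 and 105 in cocultured libraries. Irradiated 2 was as high as the unirradiated libraries and the other 2 were below all of them (log2 against normal -0.84 ± 0.71, SE, n = 3 each; edgeR adjusted p = 0.983), and without irradiated 2 the value was -2.35. Irradiated 2 was also the library that held all irradiated Il11 counts. Socs2, an inhibitor of growth hormone and STAT5 signalling, averaged 33.4 ± 25.9 CPM in irradiated, 211 ± 52.2 in cocultured and 210 ± 41.0 in normal constructs (SD, n = 3 each), with irradiated below both others. Its log2 was -2.65 ± 0.69 against normal and -2.66 ± 0.69 against cocultured constructs (edgeR adjusted p = 0.221 and 0.329). Stat5a averaged 1.88 ± 2.32 CPM in irradiated and 33.3 ± 11.3 in normal libraries, again without overlap (log2 -4.15 ± 1.86, edgeR adjusted p = 0.483), and Ptpn1, a phosphatase of JAK kinases, 170 ± 35.0 CPM in cocultured and 111 ± 24.4 in normal constructs. Of 16 genes tested in the JAK-STAT list 11 were negative against normal, near the 58.2% of all genes, with a median log2 of -0.12.

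The list of factors that control transcription and decay of IL-1 and IL-6 mRNA had 16 of 18 negative values between irradiated and normal constructs, with a median log2 of -0.78, where 58.2% of all genes were negative with a median of -0.21. Elavl1, whose product HuR binds and stabilises AU-rich mRNAs, averaged 1.42 ± 1.39 CPM in irradiated, 47.1 ± 11 in cocultured and 50.1 ± 12.5 in normal constructs (SD, n = 3 each). Irradiated libraries (2.77, 1.51 and 0 CPM) lay far below the other 6, of which the lowest was 36.1 CPM, with a log2 of -5.15 ± 1.30 against normal (edgeR adjusted p = 0.213, DESeq2 adjusted p = 1.01e-05). The list holds factors that stabilise such mRNAs and factors that degrade them. The part of Elavl1 in the cytokine values was not tested. Cebpd, the C/EBP factor induced by IL-1 and IL-6, averaged 129 ± 36.4 CPM in irradiated, 275 ± 52.8 in cocultured and 321 ± 135 in normal constructs, with irradiated below both others (log2 against normal -1.32 ± 0.39, edgeR adjusted p = 0.326). Nfkbiz, an IL-1-induced NF-kB cofactor of the Il6 gene, averaged 59.0 ± 38.3, 208 ± 71.1 and 116 ± 49.3 CPM in the same order (log2 against cocultured -1.82 ± 0.57, edgeR adjusted p = 0.493).

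Receptors for the remaining cytokines were sparse. Csf1r, the CSF1 receptor and a macrophage marker, stood at 7.60, 4.09 and 37.2 CPM in normal, 15.8, 0 and 0.117 in irradiated and 0 in all cocultured libraries, so cocultured lay below normal (edgeR adjusted p = 1, DESeq2 adjusted p = 0.036). Il34, the other ligand of that receptor, averaged 16.5 ± 17.9 CPM in irradiated against 37.7 ± 22.1 in normal constructs (SD, n = 3 each). Il15ra, the chain that presents IL-15, had counts in irradiated 1 alone (7.03 CPM) and was not tested. Il2rg, the common gamma chain, averaged 4.25 ± 6.12 CPM in irradiated, 18.4 ± 16.5 in cocultured and 29.8 ± 14.6 in normal constructs, irradiated being below normal (log2 -2.80 ± 2.13, edgeR adjusted p = 0.913).

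Genes whose pattern over the 9 libraries was most like a member's were found by Pearson correlation of log2 CPM among 8140 other genes of at least 10 CPM (8141 for members under that level). These are descriptions over libraries that share groups and scaling, and when each library was left out, or with a smaller prior count, between 0 and 3 of each member's 3 closest genes were kept, at least 1 for Il6 and Il15. Nearest to Il1a were Nsmaf (r = 0.99), Ptgs2 (0.99) and Zswim4 (0.98). Ptgs2, the inducible cyclooxygenase, stood at 1274, 272 and 440 CPM in normal, 7.67, 0 and 0 in irradiated and 111, 432 and 343 in cocultured libraries, so its irradiated counts lay in irradiated 1, as those of Il1a did. Nearest to Il6 were Sh2b3 (0.98), an adaptor that restrains cytokine signalling, Zcchc10 (0.98) and Adgrg6 (0.98), and nearest to Il33 Loxl2 (0.99), a collagen crosslinking enzyme, Sema7a (0.97) and Rbm10 (0.96). Il1b had Ubr7 (0.99), Usp37 (0.99) and Rrp1b (0.98). Lif had Set (0.94), the acute phase gene Saa3 (0.94) and Rnase2a (0.93), and Il1rl1 the acute phase gene Saa1 (0.97), Rbpj (0.94) and Celf4 (0.92). Pcna, the DNA polymerase clamp, was near both Csf1 (0.91, after Nagk at 0.95 and Surf4 at 0.93) and Il6st (0.90, with Terf2 at 0.90 and Ccdc82 at 0.89). Il15 was nearest to Tprg (0.95), Il1r1 (0.90) and Yipf1 (0.89), and Il11 to Nop10 (0.90), Fbxw4 (0.87) and Npc1 (0.86).

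Among the members themselves, Il1a, Il1b, Il33 and Il6 had pairwise correlations of 0.71 to 0.94. They are also the members lower in every irradiated library than in any other, so high values among them follow in part from that. Correlation within groups was not examined. Lif correlated with these 4 at 0.57 to 0.77 and Il1rl1 at 0.58 to 0.64. Csf1 and Il6st, at 0.74 with each other, had values of -0.50 to 0.21 with those 4, and the lowest value of any pair was -0.65, between Il11 and Il15.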

How the data were processed

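RNA of 9 constructs was read as single-end 75 bp reads from QuantSeq 3′ FWD libraries, per the labels. Tools named, without versions, are FastQC, STAR and HTSeq, with GRCm39 and mm39 as builds, per the submitters' processing notes. For annotation, strand setting and duplicates the sources used here give nothing. Each library's file holds raw read counts by gene symbol, deposited as whole numbers with no normalization, per the file headers. All 9 files carry a column number 1 higher than their sample's label, so files were assigned by the series' record and not by that number. The normal files' headings also carry a co suffix that their labels lack.

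edgeR 4.0.16 (R 4.3.3) was run on all 9 libraries with group as the only term: filterByExpr, TMM, quasi-likelihood test, Benjamini-Hochberg over 11980 genes, threshold 0.05. The biological coefficient of variation was 1.32. CPM use TMM-scaled library sizes, log2 CPM a prior count of 2, and standard errors are the log2 fold change over the square root of F. Bounds use a floor of 3 counts over a group. Floors and exact 95% intervals cover counting error only. DESeq2 1.42.0, limma 3.58.1 (voom), other scalings and filters, a replicate block and each library left out were alternatives. The test was checked on simulated data with less spread than these libraries had, so that check does not cover its power or error at their spread. Within-group pairs of libraries were distinct (mean chi-square of 35.4 to 297 per gene over genes with at least 10 counts in the pair), so none was merged.

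Members and lists were chosen with earlier results of these data known. Named were all members, 9 receptor and feedback genes, up to 3 genes per list with the smallest p at a mean of at least 5 CPM, and each member's 3 closest genes. Promoter windows came from RefSeq (GRCm38.p6).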

Additional observations from a re-analysis of the deposited data

How the results depend on the processing

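In both comparisons of irradiated constructs (against normal and against cocultured) the 0 called members became 5 with DESeq2, 1 with library totals, 3 with no filter on low counts, 1 without both normal 3 and irradiated 1, and 2 without both irradiated 2 and irradiated 3 (an alternative chosen after seeing the data), and lay between 0 and 1 as each library was left out. Over all genes, 7 calls against normal and 4 against cocultured became 667 and 635 with DESeq2, 9 and 9 with library totals, 130 and 153 with no filter, 20 and 21 without normal 3 and irradiated 1, 190 and 449 without irradiated 2 and 3, and 6 to 147 and 1 to 97 as each library was left out. Settings that omit libraries hold fewer samples, and for the others the cause was not tested. The replicate block gave 1, Il1a (23 and 12 over all genes), while replicate numbers did not pair the samples: the 9 same-numbered pairs correlated at -0.07 to 0.05 in their deviations from group means, and in 0 of 9 libraries was the own number the best match in both other groups. The count of 0 between cocultured and normal constructs held in every setting run. limma voom, DESeq2 size factors in edgeR, upper quartiles, a mean of at least 10 CPM, removal of mitochondrial genes and Gm26917, and the 6 libraries of a comparison alone left all 3 counts at 0.

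Signs of uncalled members, and of the receptor gene Il6ra, turned as follows. With library totals, cocultured against normal became 0.37 for Il33 and 0.24 for Il6, and irradiated against normal 0.31 for Il11, which was 0.61 without both normal 3 and irradiated 1. Without both irradiated 2 and irradiated 3, values against normal were -0.20 for Csf1, -1.51 for Il6st and -9.64 for Il6ra, and against cocultured -5.97 for Il11, -0.56 for Csf1 and -1.77 for Il6st. Il6ra was -1.15 with limma voom and -0.99 with the replicate block, which also took Il15 against cocultured to -0.045. Leaving out single libraries gave, for cocultured against normal, -0.060 to 0.69 (Il1b), -0.455 to 0.16 (Il33), -0.67 to 0.057 (Il6), -2.29 to 0.023 (Lif) and -0.16 to 0.88 (Il6st). For irradiated against normal it gave -9.93 to 0.12 (Il11) and -0.12 to 1.01 (Il6ra), and for irradiated against cocultured -6.02 to 7.48 (Il11), -0.26 to 3.21 (Il15), -0.025 to 0.80 (Csf1) and -0.017 to 0.97 (Il6st). Without cocultured 2, Il1rl1 had no count in either group of that comparison and gave no value. Depth and spread limit the rest: transcripts under about 10 CPM are often at 0 in single libraries. In irradiated 2 and irradiated 3 this reached higher levels, with 44.8% and 39.8% of genes at 0 at 10 to 20 CPM and 20.5% and 17.1% at 20 to 50 CPM.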
